A study of Saccharomyces cerevisiae with 10 samples.

Results

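The genes described are the ADE genes of purine synthesis in the budding yeast Saccharomyces cerevisiae, followed through a shift to lower osmolarity. The rule named 10 genes by systematic name, and 9 of them had a row among the 5822 genes of the deposited table, each with a value on all 10 arrays. ADE8 (YDR408C), the glycinamide ribotide transformylase of the third step, was not analysed here. The members were chosen on measured values as well as function, with the fall of ADE genes and the strain difference on these same arrays already seen. Their changes and differences are therefore descriptions, given with standard errors and without p-values, and counts of members past a threshold stand beside the share of all genes past it.

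Yeast builds purine nucleotides from phosphoribosyl pyrophosphate (PRPP) in a linear series of steps that ends in inosine monophosphate (IMP), which is then converted to AMP or GMP. ADE4 encodes the amidotransferase of the first, committed step, ADE5,7 a bifunctional enzyme of the second and the fifth steps, ADE6 the synthetase of the fourth, ADE2 the carboxylase of the sixth and ADE1 the SAICAR synthetase of the seventh. ADE13 encodes adenylosuccinate lyase, which acts at the eighth step and again on the AMP branch. ADE16 and ADE17 encode isozymes for the last steps to IMP, and ADE12 the adenylosuccinate synthase that opens the AMP branch. In yeast many of these genes are known to be activated by the transcription factors Bas1 and Pho2 together and to be repressed when adenine is plentiful.

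Total RNA came from wild type yeast and from a strain labelled delPPT1, a deletion of PPT1. That gene encodes a serine/threonine phosphatase that acts on Hsp90. Each strain was sampled before the hypo-osmotic shift (0 min) and at 7, 30 and 60 min, with a further sample at 16 min in the wild type and at 15 min in the mutant, and these last are joined as 15-16 min. Every strain and time had 1 array, which carried the sample and a labelled reference in its channels. The labels give no strain background, medium or salt concentration, and nothing about whether the samples of a strain came from 1 culture, so the spread between arrays may be technical. No unshifted culture was followed alongside, so the effect of the shift and that of time or handling cannot be told apart.

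Values are ratios on the log2 scale, with the sample likely in the numerator, after each array was centred on its median. A value shows a gene against the reference, so levels of different genes are not compared, only their changes. A lower value can mean fewer cells with the transcript or less of it per cell, and these cannot be told apart. Between 5440 and 5807 genes had a value on each array. On the array of the wild type before the shift 43% of values had 4 decimals, and 100% of those ended in 5, as a mean of 2 numbers would, whereas 0% did on any other array. Counts of calls and fitted changes at 60 min are also given without it, while the wild type's own changes and the pair at 0 min have no value without it. PPT1 did not bear out the strain labels, with values from -0.50 to 0.07 in the wild type and from -0.55 to 0.40 in the mutant and a fitted difference of 0.19 ± 0.13 (SE, 5 pairs; limma adjusted p = 0.417), so the second strain is called the arrays labelled delPPT1. The stretch of PPT1 that its spot detects is not known here.

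Before the shift 8 of the 9 ADE genes stood above the array median in both strains, and by 60 min all 8 stood below it. ADE17 had the widest course, followed by ADE2 and ADE1. ADE16 alone of the 9 hardly moved, with a range of 0.31 over the 10 arrays against 4.89 for ADE17.

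ADE4 (YMR300C), the committed step, stood at 1.41, 0.99, -0.16, -0.29 and -0.38 in the wild type at 0, 7, 16, 30 and 60 min, and at 2.08, 0.94, -0.06, -0.006 and -0.11 at 0, 7, 15, 30 and 60 min on the arrays labelled delPPT1. Most of its fall had taken place by 15-16 min in both series. ADE5,7 (YGL234W) went from 1.20 and 0.99 at 0 and 7 min to 0.094, -0.32 and -0.45 in the wild type, and from 1.30 and 1.28 to 0.20, -0.38 and -0.17 on the arrays labelled delPPT1. It was little changed at 7 min and dropped afterwards. ADE6 (YGR061C), the FGAM synthetase, had the smallest fall of the 8, from 0.65 through 0.36, 0.46 and 0.10 to -0.32 in the wild type and from 0.50 (0.495 before rounding) through 0.42, 0.06 and -0.52 to -0.46 on the arrays labelled delPPT1.

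ADE2 (YOR128C), whose loss turns yeast colonies red, began at 2.56 in the wild type and passed through 1.41 at 7 min to -0.75, -0.55 and -0.59 at 16, 30 and 60 min. On the arrays labelled delPPT1 it was at 2.70, 1.19, -0.23, -0.25 and -0.33. The drop was already more than 1 log2 unit at 7 min in both series, and little more was lost after 15-16 min. ADE1 (YAR015W) was at 1.53, 1.75, 0.52, -0.46 and -0.49 in the wild type and at 2.26, 1.73, 0.44, -0.001 and -0.19 on the arrays labelled delPPT1. ADE13 (YLR359W) was at 1.28, 1.32, -0.007, -0.47 and -0.69 in the wild type and at 1.87, 1.57, 0.36, -0.22 and -0.36 on the arrays labelled delPPT1. In the wild type neither ADE1 nor ADE13 was lower at 7 min than at 0 min.

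ADE17 (YMR120C) was at 2.53, 2.26, -0.43, -1.46 and -1.45 in the wild type and at 3.43 (3.425 before rounding), 2.49, 0.084, -0.41 and -0.96 on the arrays labelled delPPT1. Both series lost most of the signal between 7 and 15-16 min. ADE12 (YNL220W) was at 0.29, 0.12, -0.89, -0.98 and -1.16 in the wild type and at 0.83, 0.46, -0.60, -0.73 and -0.92 on the arrays labelled delPPT1. Its drop was smaller and also came mostly between 7 and 15-16 min, with less further fall to 30 min than ADE17. ADE16 (YLR028C) was between -0.29 and -0.027 in the wild type and between -0.34 and -0.076 on the arrays labelled delPPT1.

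**Figure D1:**
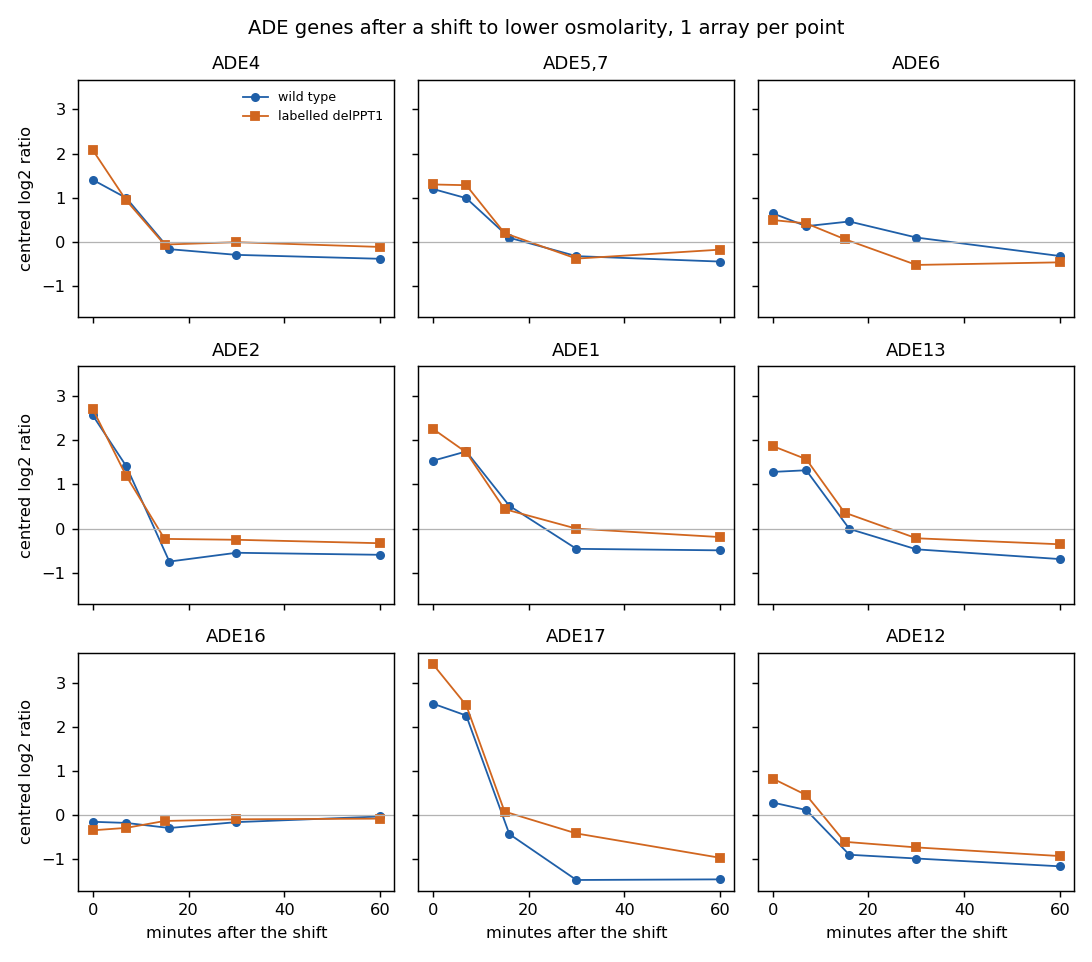
Centred log2 ratio (sample over reference, vertical axis) of the 9 ADE genes against minutes after the shift (horizontal axis), with 1 array per point, circles for the wild type and squares for the arrays labelled delPPT1. All 9 genes end below the array median (0), all but ADE16 start above it, and ADE17 covers the widest span, from 3.43 to -1.46.

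In the fit over both strains, which treats the strains as the 2 replicates of a time, the change from 0 to 60 min was -4.18 ± 0.19 for ADE17 (SE of the fit over 10 arrays), an 18.2-fold lower ratio. It was -3.10 ± 0.17 for ADE2 (8.55-fold), -2.24 ± 0.19 for ADE1, -2.10 ± 0.13 for ADE13 and -1.99 ± 0.17 for ADE4. The remaining falls were -1.60 ± 0.13 for ADE12, -1.56 ± 0.13 for ADE5,7 and -0.96 ± 0.17 for ADE6, while ADE16 stood at 0.19 ± 0.13. Under 15 alternatives of processing or arrays the change ran from -4.35 to -3.35 for ADE17 and from -3.14 to -2.32 for ADE2. It ran from -2.52 to -1.655 for ADE1, -2.24 to -1.62 for ADE13 and -2.25 to -1.47 for ADE4. For ADE12 it was -1.73 to -1.47, for ADE5,7 -1.64 to -1.18 and for ADE6 -1.03 to -0.83. Counted from the lowest change of all 5822 genes at 60 min, ADE17 ranked 3, ADE2 9, ADE1 25, ADE13 32, ADE4 37, ADE12 72, ADE5,7 77, ADE6 189 and ADE16 4452.

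Passing means a Benjamini-Hochberg adjusted p under 0.05 in limma over all genes. At 7 min 2 of the 9 genes were lower, ADE2 and ADE4, where 2.58% of all genes were lower and 0.447% higher. The other ADE genes had fitted changes between -0.60 (ADE17) and 0.01 (ADE16) at that time, and with quantile normalization ADE17 (0.05), ADE1 (0.35), ADE13 (0.31) and ADE5,7 (0.23) turned to values above 0 that did not pass. At 15-16 min 7 were lower, all but ADE6 and ADE16, against 5.62% of genes lower and 1.56% higher. At 30 min 8 were lower (all genes: 7.8% lower, 3.56% higher), and at 60 min 8 (8.38% lower, 3.97% higher). The median changes of the 9 genes in time order were -0.18, -1.40, -1.89 and -1.99, beside medians of all genes between -0.02 and -0.0045. Members were chosen by falls of this kind, so these counts carry no evidence about them.

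Without the wild type 0 min array the numbers of lower members in time order were 2, 7, 7 and 8. Over all genes they were 38, 137, 254 and 258, against 150, 327, 454 and 488 with it. The change at 60 min was then -4.35 for ADE17 (-4.3455 before rounding), -3.06 for ADE2, -2.52 for ADE1, -2.24 for ADE13 and -2.25 for ADE4, and -1.73 for ADE12, -1.53 for ADE5,7, -1.02 for ADE6 and 0.30 for ADE16. ADE4 lost its 7 min call without centring, with quantile normalization, with median and MAD scaling, and without any single array other than that of the wild type at 0 min, with values from -0.97 to -0.27. ADE2 at 7 min was at -1.33 ± 0.17 and at -0.57 with quantile normalization, where it did not pass. ADE6 lost its call at 30 min with quantile normalization (-0.64) and without the wild type 0 min array (-0.84), the labelled delPPT1 0 min array (-0.72) or the labelled delPPT1 30 min array (-0.55), and at 60 min without the labelled delPPT1 0 min array (-0.90).

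**Figure D2:**
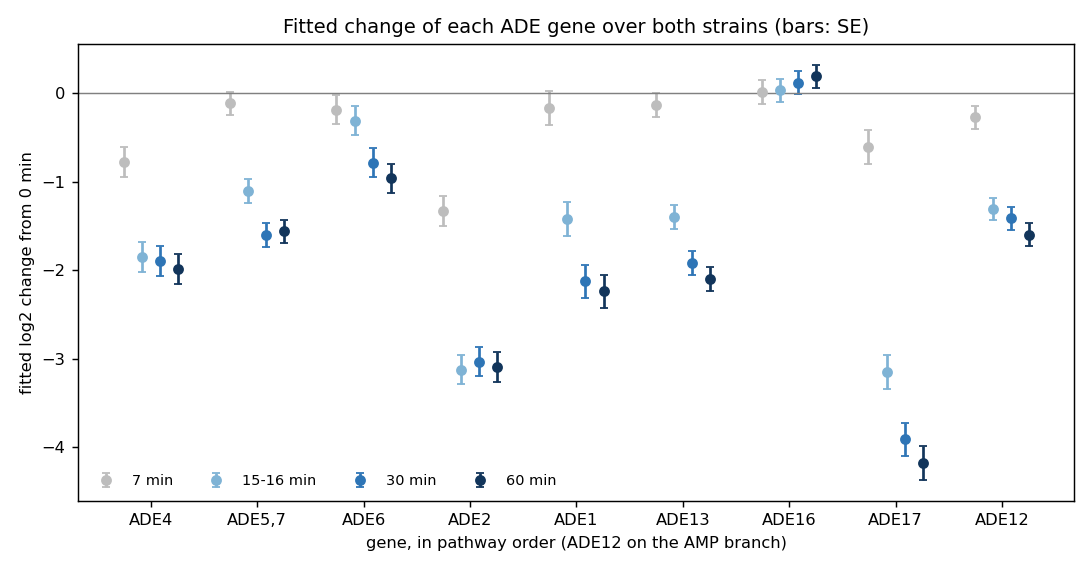
Fitted log2 change from 0 min (vertical axis) for each ADE gene in pathway order (horizontal axis), with points for 7, 15-16, 30 and 60 min and bars of 1 SE from the limma fit over 10 arrays. ADE2 and ADE4 are nearly level from 15-16 min on, ADE1, ADE13 and ADE5,7 go on falling to 30 min, and ADE16 stays within 0.19 of its 0 min value.

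The sampled times left most of the falls unordered. First falls of at least 2-fold came at 15-16 min for 6 members in the wild type and 5 on the arrays labelled delPPT1. In the wild type ADE2, of the sixth step, was the only member at least 2-fold (1 log2 unit) below its own 0 min value at 7 min, where 2.26% of all genes were that low. On the arrays labelled delPPT1 ADE2 and ADE4 were, against 1.14% of genes. At 15-16 min 7 members had passed this fold in each series, with 3.87% of genes at 16 min in the wild type and 2.18% at 15 min on the arrays labelled delPPT1. At 30 min it was 7 members in the wild type (3.15% of genes) and 8 on the arrays labelled delPPT1 (3.78%), where ADE6 joined at -1.02. At 60 min it was 7 in each series (3.03% and 3.9% of genes). These are single arrays with no replicate check, and the counts were not recomputed with quantile normalization. The fitted 7 min changes over both strains were -0.57 for ADE2 and -0.27 for ADE4 with that normalization, and neither passed.

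Expressed as a share of each gene's largest fall in that strain, ADE2 had completed 34.7% by 7 min in the wild type and 49.8% on the arrays labelled delPPT1. ADE4 had completed 23% and 52%, and ADE6 30.1% and 7.48%. For ADE17 the shares at 7 min were 6.83% and 21.3%, for ADE12 11.8% and 21.3%, and for ADE5,7 12.7% and 1.01%. ADE1 and ADE13 had risen slightly in the wild type at that time and had completed 21.8% and 13.4% on the arrays labelled delPPT1.

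By 15-16 min the shares had spread further. ADE2 was at 100% in the wild type and 96.8% on the arrays labelled delPPT1, ADE4 at 87.8% and 97.5%, and ADE12 at 81.9% and 81.6%. ADE17 followed at 74% and 76.2%, ADE5,7 at 67.2% and 65.6%, ADE13 at 65.4% and 67.7%, and ADE1 at 50.2% and 74.2%. ADE6 came last with 19.2% and 42.4%. At 15-16 min the first and sixth steps thus had the largest shares in both series, while at 7 min in the wild type ADE6 stood above ADE4. The wild type sample was taken 1 min later than the other one here, so strain and sampling time cannot be told apart in this pair.

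On the arrays labelled delPPT1, ADE4 had completed 52% and ADE2 49.8% of its largest fall by 7 min. In the fit over both strains, the larger part of the fall came between 7 and 15-16 min for all falling members but ADE6. The fitted step over that interval was -2.54 ± 0.19 for ADE17, which ranked 1 among all genes, -1.79 ± 0.17 for ADE2, -1.27 ± 0.13 for ADE13, -1.26 ± 0.19 for ADE1, -1.08 ± 0.17 for ADE4, -1.04 ± 0.13 for ADE12 (-1.035 before rounding) and -0.99 ± 0.13 for ADE5,7. These 7 members were lower by limma, among 26 genes of the whole table (0.447%). Members were chosen with their fall on these arrays already seen, so this count carries no evidence about them. ADE6 (-0.12 ± 0.17) and ADE16 (0.02 ± 0.13) did not pass. The count rested on the arrays of this interval: it was 2 (of 3 genes) without the wild type 7 min array, 1 (of 2) without the wild type 16 min array, 5 (of 17) without the labelled delPPT1 7 min array and 3 (of 9) without the labelled delPPT1 15 min array.

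From 15-16 to 30 min 0 members passed in limma (0.0344% of genes were lower). At an unadjusted p under 0.05, 5 members and 249 genes of the table were lower. The fitted steps were -0.77 ± 0.19 for ADE17, -0.71 ± 0.19 for ADE1, -0.52 ± 0.13 for ADE13, -0.50 ± 0.13 for ADE5,7 and -0.47 ± 0.17 for ADE6. Those of ADE12, ADE4 and ADE2 were -0.11 ± 0.13, -0.0375 ± 0.17 and 0.090 ± 0.17. From 30 to 60 min 0 passed (0.0516% of genes were lower). At an unadjusted p under 0.05 it was 0 members as well, while 316 genes of the table were lower. The steps lay between -0.27 ± 0.19 (ADE17) and 0.07 ± 0.13 (ADE16).

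**Figure D3:**
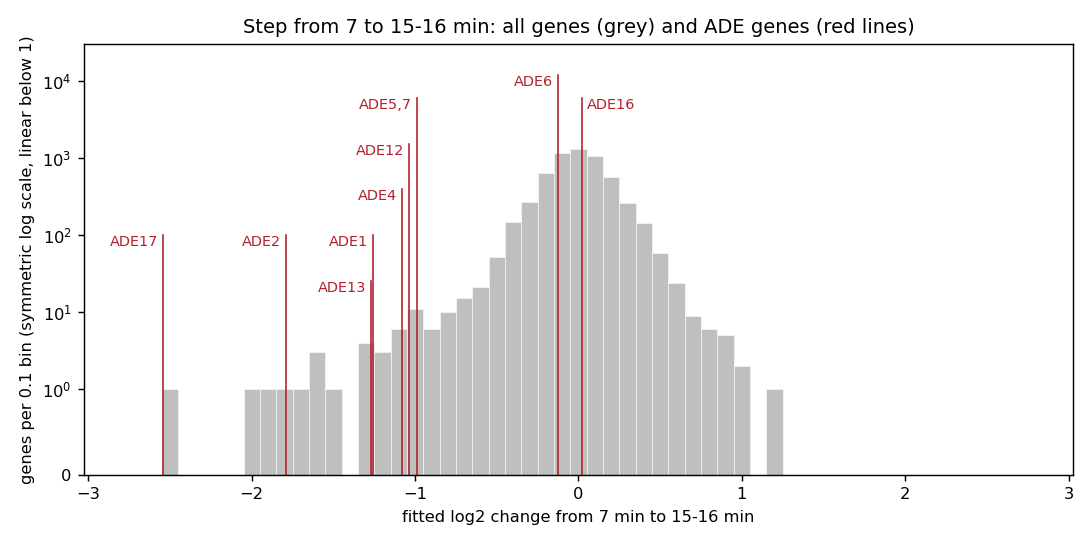
Fitted log2 change from 7 to 15-16 min (horizontal axis) as a histogram of all genes in bins of 0.1 (grey; number of genes on a symmetric log axis), with the 9 ADE genes marked by red lines whose heights carry no value. ADE17 is the lowest gene of the table at -2.54, 7 members lie at or below -0.99, and ADE6 and ADE16 lie in the bulk.

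ADE17 and ADE16, which encode isozymes of the same reactions, parted company. The difference ADE17 minus ADE16 was 2.68 and 2.43 in the wild type at 0 and 7 min and -0.14, -1.31 and -1.42 at 16, 30 and 60 min. On the arrays labelled delPPT1 it was 3.77 (3.765 before rounding), 2.77, 0.21, -0.32 and -0.89 at 0, 7, 15, 30 and 60 min. The difference fell from each time to the next in both series. Between 0 and 60 min it changed by -4.10 in the wild type and by -4.65 on the arrays labelled delPPT1, a mean of -4.37 ± 0.39 (SD, n = 2 strains). Over that time ADE16 itself changed by 0.12 in the wild type and 0.26 on the arrays labelled delPPT1. The fitted changes of ADE16 were 0.01, 0.035, 0.12 and 0.19 in time order, each with an SE of 0.13.

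The spread of ADE16 over the 10 arrays (SD 0.10) was larger than that of 3.93% of all genes, that of ADE17 (SD 1.86) larger than that of 100% when rounded. The other 7 members lay between 93.4% (ADE6) and 99.8% (ADE2). Transcripts of such similar genes may share signal on an array, in which case the measured difference between the pair would be smaller than the true one. The amount was not tested.

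The genes lie at scattered places in the genome, and their neighbours gave a comparison outside the rule, chosen after the values were seen. Each member has a protein-coding gene on either side in the R64 annotation, 18 in all and all in the table, and 0 of them overlap it. Of all genes 2.58% were lower and 0.447% higher at 7 min by limma, and 5.62% and 1.56% at 15-16 min. At 30 min it was 7.8% and 3.56%, and at 60 min 8.38% and 3.97%. Of the 18 neighbours 0 passed at 7 and 60 min, and 1 passed at each of the times between. ERG25, a sterol oxidase gene beside ADE6, was higher at 15-16 min (0.54 ± 0.12, adjusted p = 0.0243), and KIN3, a protein kinase gene beside ADE1, was lower at 30 min (-0.58 ± 0.14, adjusted p = 0.0289). At an unadjusted p under 0.05, 2 neighbours were higher at 7 min, and 1 was lower and 1 higher at 15-16 min. At that level 3 were lower at 30 min and 1 at 60 min. POP1, beside ADE12, was among the lower ones at 15-16, 30 and 60 min (-0.32, -0.39 and -0.40, each with an SE of 0.14). COX18, beside ADE6, was at -0.66 ± 0.22 at 30 min. The neighbours' changes at 60 min ran from -0.58 to 0.32 with a median of 0.11. ADE16 and ADE17 both lie next to a gene for ribosomal protein L15, RPL15A at 0.22 ± 0.14 and RPL15B at 0.29 ± 0.15 at 60 min, and neither passed. RPL15A and RPL15B are near-identical and may share signal.

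The strains differed less than the times. Averaged over the 5 matched pairs, the fitted difference, labelled delPPT1 minus wild type, was 0.64 ± 0.12 for ADE17, 0.36 ± 0.08 for ADE13, 0.33 ± 0.08 for ADE12, 0.28 ± 0.12 for ADE1, 0.26 ± 0.11 for ADE4, 0.20 ± 0.11 for ADE2 and 0.14 ± 0.08 for ADE5,7. It was -0.03 ± 0.08 for ADE16 and -0.25 ± 0.11 for ADE6. ADE17 and ADE13 passed, 2 of the 9 members, where 1.73% of all genes were higher in the mutant series and 2.06% lower. The strain difference was already seen when the members were chosen, so this count is a description. ADE12, with an adjusted value just over the threshold, passed when only genes with all 10 values were fitted. The median of the 9 was 0.26, beside 0.006 for all genes.

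ADE17 was higher on the array labelled delPPT1 in 5 of 5 pairs, by 0.23 to 1.05. ADE13 was higher in 5 of 5, by 0.25 to 0.59, and ADE12 in 5 of 5, by 0.23 to 0.54. ADE4, ADE5,7 and ADE2 were higher in 4 pairs and lower in 1, and ADE1 in 3 and 2. ADE6 went the other way in 4 pairs, down to -0.62 at 30 min. The pairs of a strain may share a culture and need not be independent.

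The call for ADE17 was lost without either array of the 0, 15-16, 30 or 60 min pair, with differences from 0.53 to 0.67. That for ADE13 was lost without any single array and with quantile normalization (0.33). Without the wild type 0 min array 0 members passed for strain, and 56 genes of the table did, against 221 with it. With the time term left out of the fit 0 members passed, and 0 genes of the table.

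The median strain difference of the members was largest before the shift. At 0 min 7 of 9 members were higher on the array labelled delPPT1, with a median of 0.54, ADE17 by 0.90, ADE1 by 0.73 and ADE4 by 0.67. At 7 min 5 were higher, with a median of 0.06. At 15-16, 30 and 60 min 7 were higher each time, with medians of 0.16, 0.25 and 0.27. Medians of all genes in time order from 0 min were -0.0035, 0.02, -0.003, 0.014 and 0.008. The pair at 0 min rests on the wild type 0 min array, whose values may be means of 2 numbers. In the fit with an interaction, the strain difference after the shift minus that at 0 min had a median of -0.26 over the 9, and was -0.56 ± 0.26 for ADE1, -0.52 ± 0.22 for ADE4, -0.33 ± 0.30 for ADE17 and 0.07 ± 0.28 for ADE2. By limma 0 members passed, as did 0% of all genes, while 1 member (ADE4) and 273 genes of the table had an unadjusted p under 0.05. On simulated data this fit called 31% of 2-fold differences, so differences of the size seen here could go uncalled.

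**Figure D4:**
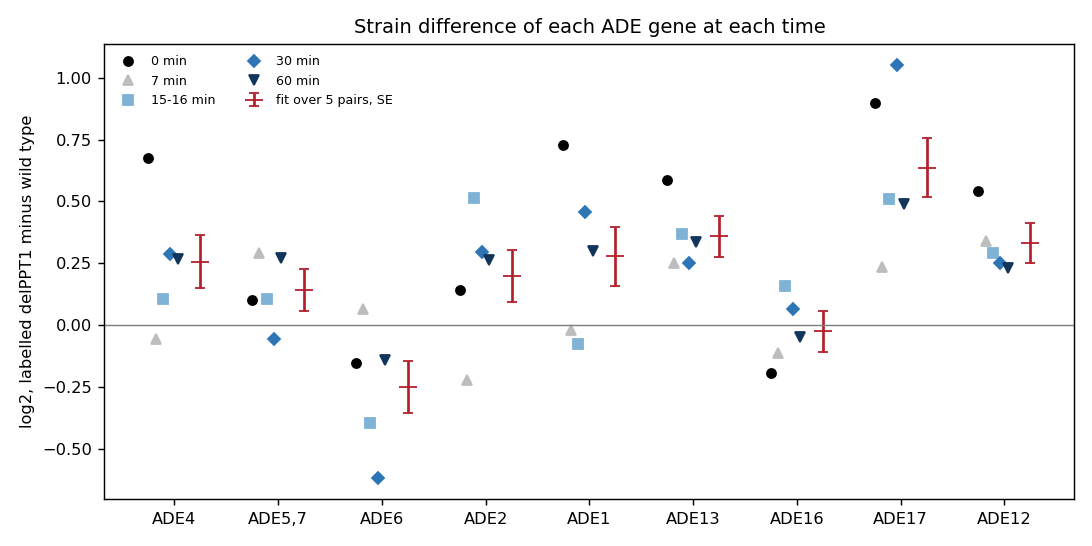
Strain difference in centred log2 ratio, labelled delPPT1 minus wild type (vertical axis), for each ADE gene (horizontal axis), with 1 symbol for each matched pair of arrays and a red bar for the limma estimate over the 5 pairs with its SE. All 5 pairs lie above 0 for ADE13, ADE17 and ADE12, and 4 of 5 below 0 for ADE6.

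Over the 10 arrays the members other than ADE6 and ADE16 ran closely together. The highest Pearson correlation was 0.99, for ADE13 with ADE17 (Spearman 0.94), and ADE4 with ADE2 had 0.98 (Spearman 0.95). ADE6 correlated with the other falling members at between 0.67 and 0.81, and ADE16 with all others at between -0.76 and -0.49. These values describe the 10 arrays, which share the 2 time courses and 1 reference, and the arrays of a series are not independent.

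Among 187 other genes with all 10 values and an SD of at least 0.5, the course most like the members' mean by Pearson r was that of SHM2 (r = 0.99, Spearman 0.90), the cytosolic serine hydroxymethyltransferase. RCK1, a protein kinase gene, followed (r = 0.99, Spearman 1), then PLB1, a phospholipase B gene (r = 0.97, Spearman 0.95), and ITR1, an inositol transporter gene (r = 0.97, Spearman 0.88). After these came HSP26, a small heat shock protein gene (r = 0.96, Spearman 0.96), and the unnamed YMR090W (r = 0.96, Spearman 0.95). By Spearman the order of these genes was thus another, with RCK1 above SHM2. For ADE17 alone the most alike were RCK1 (r = 0.98), SHM2 (r = 0.98) and ITR1 (r = 0.97). Each r is over 10 arrays.

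The other genes of purine metabolism were taken from 7 lists by function, 40 genes that were all in the table. These lists were written with earlier results of these data known. Their counts and adjusted p-values are therefore descriptions and not independent support. By limma 16 of them fell by 60 min, where 8.38% of all genes did, 1 rose, where 3.97% did, and 23 did not pass. The numbers that fell by 7, 15-16 and 30 min were 4, 9 and 13, where 2.58%, 5.62% and 7.8% of all genes fell, with 0 that rose. Their median change at 60 min was -0.33, against -0.02 for all genes. Without single arrays fewer passed: at 7 min 2 without the 0 min or 7 min array of the wild type or the 7 min array labelled delPPT1, at 15-16 min 5 without the wild type 16 min array or the 0 min array labelled delPPT1, at 30 min 7 without the wild type 0 min array and 8 without that of 30 min, and at 60 min 9 without the wild type 0 min or 60 min array, 7 without the 0 min array labelled delPPT1 and 11 without that of 60 min.

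One-carbon supply, which gives the formyl groups and glycine built into the purine ring, held the largest changes. Of its 8 genes 6 fell at 60 min. SHM2 went from 2.45 to -0.17 in the wild type and from 2.81 (2.805 before rounding) to -0.20 on the arrays labelled delPPT1, a fitted change of -2.81 ± 0.17 (limma adjusted p = 9.07e-06). MTD1, a cytosolic methylenetetrahydrofolate dehydrogenase gene, was at -2.68 ± 0.17 (adjusted p = 1.36e-05), and it had already fallen at 7 min (-1.82 ± 0.17, adjusted p = 0.000744). GCV1, a subunit gene of glycine decarboxylase, was at -2.04 ± 0.21 (adjusted p = 0.000211). These 3 genes passed under all 15 alternatives at each time where they passed. GCV2 (-1.11 ± 0.27), ADE3, the trifunctional C1-tetrahydrofolate synthase gene (-0.75 ± 0.19), and GCV3 (-0.68 ± 0.14) fell too, with calls lost under 5, 6 and 3 of 15 alternatives. GCV2 was at -0.56 without the 0 min array labelled delPPT1 and at -0.64 with quantile normalization, where it did not pass. SHM1 (-0.39 ± 0.14) and MIS1 (0.18 ± 0.14), both for mitochondrial enzymes, did not pass.

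In purine uptake 3 of 4 genes fell by 60 min and 1 rose. FCY2, the purine-cytosine permease gene, was lower from 7 min on, at -1.29 ± 0.12 at 7 min (adjusted p = 0.000748) and -1.12 ± 0.12 at 60 min (adjusted p = 0.000348), and passed under all 15 alternatives at each time. Its fitted steps after 7 min were 0.02, 0.10 and 0.04, each with an SE of 0.12, and did not pass. FCY21 (-0.74 ± 0.12) and FCY22 (-0.86 ± 0.17, lost without the wild type 0 min or the delPPT1 60 min array) were lower at 60 min as well. Genes of this family, FCY2 among them, are alike in sequence and may share signal, so FCY2, FCY21 and FCY22 are each uncertain. FUN26, a vacuolar nucleoside transporter gene, rose (0.47 ± 0.13, adjusted p = 0.0411), a call lost under 8 of 15 alternatives.

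Of 5 GMP branch genes 0 passed in limma at any of the 4 times, where 8.38% of all genes fell and 3.97% rose at 60 min. At an unadjusted p under 0.05 it was 0 at 7 and 60 min and 1 lower at 15-16 min. At 30 min 2 were lower, IMD2 (-0.39 ± 0.16) and IMD3 (-0.35 ± 0.13), and 1 higher, IMD4 (0.35 ± 0.13). Of all genes 969 were lower and 653 higher at that level at 30 min. At 60 min GUA1, the GMP synthase gene, was at -0.09 ± 0.12. The IMP dehydrogenase genes IMD2, IMD3 and IMD4, which are near-identical and may share signal, were then between -0.22 and 0.22. Of 5 PRPP synthetase genes PRS3 fell at 60 min (-0.75 ± 0.14, adjusted p = 0.00943). Of 11 salvage and interconversion genes 2 fell at 60 min, HPT1, the hypoxanthine-guanine phosphoribosyltransferase gene (-0.82 ± 0.14, adjusted p = 0.00402), and AAH1, the adenine deaminase gene (-0.73 ± 0.17, adjusted p = 0.0195). GUD1, the guanine deaminase gene, passed as lower at 30 min alone (-0.73 ± 0.15, adjusted p = 0.013). At 7, 15-16 and 60 min GUD1 was at -0.30, -0.43 and -0.47, each with an SE of 0.15, and did not pass. GUD1 was higher on the arrays labelled delPPT1 over all times (0.43 ± 0.10, adjusted p = 0.0429). It was the 1 gene of the 40 that passed for the strain term. The 60 min calls of PRS3 and AAH1 were lost without the wild type 60 min array or the 0 min array labelled delPPT1, and that of HPT1 without the latter, while the 30 min call of GUD1 was lost without the wild type 0 min or 30 min array. Its strain call was lost under 14 of 16 alternatives, with any single array left out among them, at values from 0.35 to 0.50.

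Of the 3 regulators, BAS1 was lower at 30 min (-0.58 ± 0.16, adjusted p = 0.0409) and 60 min (-0.56 ± 0.16, adjusted p = 0.0458), calls lost under 8 and 10 of 15 alternatives, while PHO2 (0.10 ± 0.15) and GCN4 (0.05 ± 0.13) did not pass at 60 min. Of 4 histidine synthesis genes, a pathway that releases the purine intermediate AICAR, 3 fell at 60 min: HIS7 (-0.95 ± 0.17, adjusted p = 0.00553), HIS4 (-0.87 ± 0.19, adjusted p = 0.0164, lost under 3 of 15 alternatives) and HIS1 (-0.53 ± 0.14, adjusted p = 0.0389, lost under 11 of 15 alternatives). HIS4 was at -0.53 without the wild type 60 min array, and HIS7 lost its call without that of 0 min. HIS6 was at 0.16 ± 0.13.

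**Figure D5:**
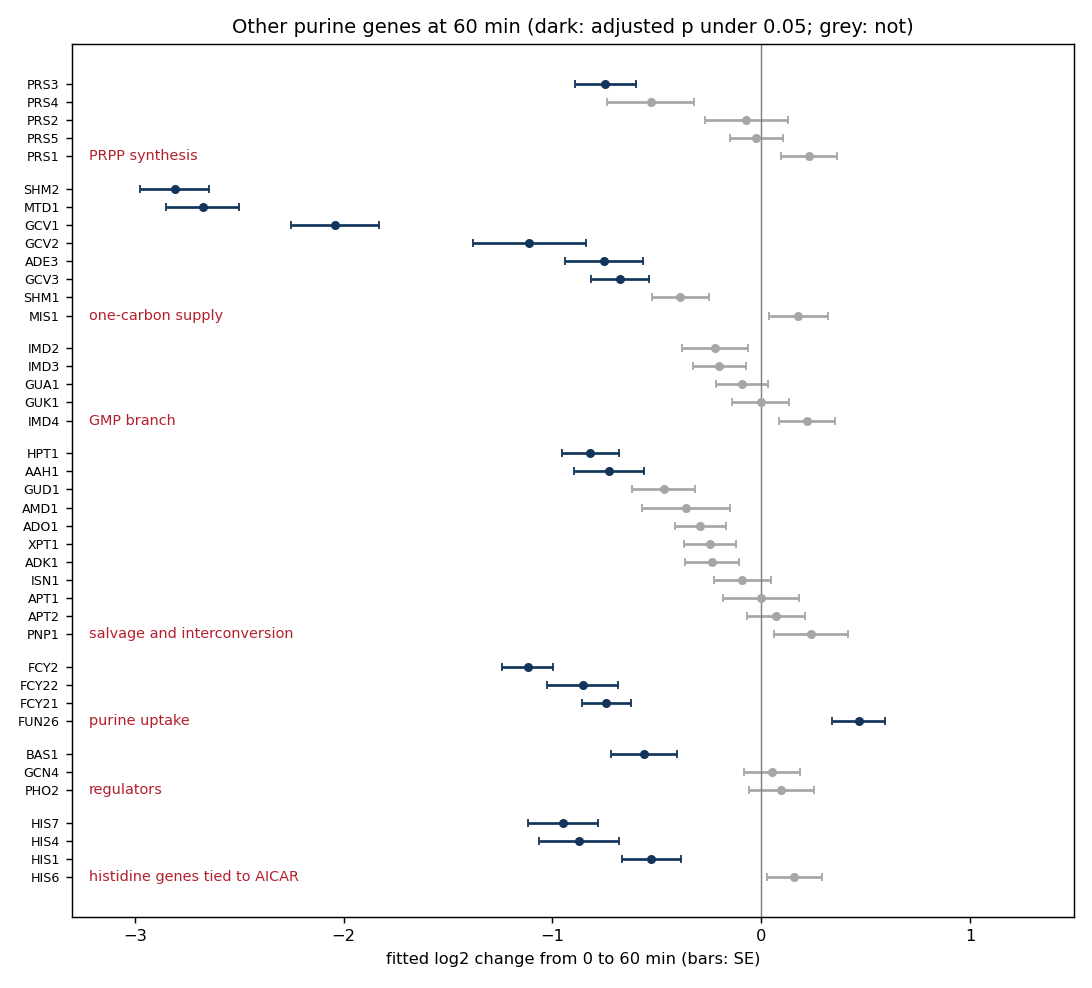
Fitted log2 change from 0 to 60 min with its SE (horizontal axis) for 40 other purine genes in 7 lists (vertical axis), dark where the limma adjusted p was under 0.05 and grey where it was not. SHM2, MTD1 and GCV1 lie at or below -2.04, and the 5 genes of the GMP branch lie between -0.22 and 0.22.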

How the data were processed

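Two-channel arrays of total RNA were used, 1 for each strain and time. The deposited values are log ratios, taken as log2, 1 value per gene and array. No source used here gives their log base, normalization, platform or dyes. A natural log cannot be told apart from log2 by the values, and the direction, sample over reference, is likely from the channel labels. Of the values 1.81% were missing. Each array was centred on its median. Samples were grouped by the strain and time in their titles. The members and gene lists were chosen with earlier results of these data known.

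Across all genes limma 3.58.1 in R 4.3.3 fitted time plus strain (4 residual degrees of freedom), and a second fit added strain by shift (3 residual degrees of freedom), with Benjamini-Hochberg adjustment at 0.05. Missing values were left out gene by gene. The fit was tested on simulated data, where it called 90.6% of 2-fold changes at 60 min, 99% of those for strain and 31% of those for strain by shift. The noise was drawn independently for each array, and changes under 2-fold were not simulated. The members' strain differences, at most 0.64 on the log2 scale, were under 2-fold, so the 99% does not cover them. Named genes were all members, the genes of the 40 listed ones that passed at any time or for strain, the 6 genes most like the members' mean and the 3 most like ADE17. SHM1, MIS1, GUA1, IMD2, IMD3, IMD4, PHO2, GCN4 and HIS6, which did not pass, were picked after their values were seen. Alternatives were no centring, quantile normalization, median and MAD scaling, genes with all 10 values, a variance trend with robust fitting, no time term for strain, and each array left out. The number of arrays limits the precision. Neighbours came from RefSeq's R64 annotation.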

Additional observations from a re-analysis of the deposited data

How the results depend on the processing

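No paired analysis was possible because the groups compared share fewer than 2 replicate numbers, each having 1 array, so nothing could be blocked by replicate number. The strain difference was fitted over time-matched pairs, with time as a term. Of the ADE gene values recomputed under the alternatives, 39 lost their call and 1 gained it, and 19 that passed in neither fit changed sign. The number of ADE genes lower at 7 min went from 2 to 1 without centring, 0 with quantile normalization and 1 with median and MAD scaling. Over all genes it went from 150 to 129, 36 and 75. The number that passed for strain went from 2 to 1 with quantile normalization and 0 without a time term. Over all genes it went from 221 to 124 and 0. The change of ADE17 minus ADE16 at 60 min was -3.52 with quantile normalization. The cause of these shifts was not tested. Leaving out each array in turn gave 1 to 2 ADE genes lower at 7 min, 7 at 15-16 min, 7 to 8 at 30 and at 60 min, and 1 to 7 lower at 15-16 than at 7 min. Lower calls over all genes were then 38 to 143, 137 to 308, 223 to 498, 222 to 517, and 2 to 25. Leaving out each array also gave 0 to 1 ADE genes that passed for strain (34 to 96 over all genes) and -4.64 to -4.11 for ADE17 minus ADE16. For strain by shift it gave 0 (0 over all genes), where leaving out a 0 min array gave no value. For the other purine genes leaving out each array gave 2 to 4 that passed at 7 min, 5 to 9 at 15-16 min, 7 to 13 at 30 min and 7 to 17 at 60 min. Over all genes 44 to 164, 162 to 392, 265 to 728 and 273 to 780 then passed. Among all alternatives 128 single values of the other purine genes lost their call. With all arrays, lower calls over all genes at 7, 15-16, 30 and 60 min numbered 150, 327, 454 and 488, and 36, 135, 231 and 248 with quantile normalization.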
